A study of Mus musculus with 26 samples.

Results

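Interferon-stimulated genes are the transcripts that a cell makes when interferon binds its receptors, and 53 such mouse genes were followed here through microglia and cortical nuclei. They were taken by symbol from a list: 52 of the 53 were measured among the 31053 genes of 18 libraries of sorted microglia, and 51 among the 30406 genes of 8 libraries of cortical nuclei. Mx2 was not analysed here, and Mx1 was not analysed in nuclei. No measured value entered the choice. The members and the lists of other genes used beside them were nevertheless drawn up with earlier results of these data known.

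The series asks how maternal immune activation (MIA) reaches the microglia and the other cells of the developing somatosensory cortex. Pregnant C57Bl/6N dams were injected intraperitoneally at E12.5 (embryonic day) with saline or with poly(I:C), an artificial RNA duplex that imitates a virus. Microglia of wild-type (WT) offspring were sorted as Cd11b+, Cx3cr1+, Cd45-low cells from meninges-free cortex. Nuclei came from flash-frozen E15.5 cortex of male WT and Csf1r-/- embryos, the latter lacking the receptor that microglia need to survive. The microglia libraries comprised 3 saline and 3 MIA libraries at E13, 3 and 3 at E15, and 4 and 2 at postnatal day (P) 14, labelled as mixed sex, except that P14 saline replicate 3 was split into a female (3F) and a male (3M) library. The nuclei comprised 2 libraries for each of WT saline, WT MIA, Csf1r-/- saline and Csf1r-/- MIA. All microglia donors were WT, and all animals were of 1 strain. Nothing in the labels says that replicates came from separate litters, so a p-value measures only the spread between libraries.

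Type I interferon (interferon alpha and beta) binds a receptor built from Ifnar1 and Ifnar2, whose kinases phosphorylate Stat2. Stat2 then acts with Irf9 in a complex that binds the interferon-stimulated response element (ISRE) in target promoters, whereas interferon gamma acts mainly at the gamma-activated site (GAS). The induced proteins block viral entry, degrade or sequester viral RNA, attach the ubiquitin-like protein Isg15 to other proteins and feed back on the pathway. In the brain, microglia carry this machinery at rest, and small numbers of microglia with a strong interferon signature are known from development, ageing and disease.

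Many of the members' promoters held the core letters of the ISRE. In RefSeq's table for GRCm38.p6, which spans 250 bases before to 50 bases after each annotated start, 41 of the 53 members were found. A core ISRE, searched on both strands as a pair of GAAA tetramers set 2 bases apart, was present in 22 of the 41 members (53.7%), against 3.99% of all 27025 genes in the table. The GAS core, TTC and GAA set 3 bases apart, was present in 8 of the 41 (19.5%), against 9.55% of all genes. By role, all 5 immunity GTPases in the table and 3 of the 4 Ifit genes held a core ISRE. Of the 5 genes in the table that form the group of other interferon-induced genes, 0 held one, and the single gene in the table of the Parp and Deltex group, Dtx3l, lacked it too. A match is a string of letters in this window and was not tested for binding. Promoter stretches from RefSeq are printed for some of the members that held a match, 5′ to 3′ on the gene's own strand, with the core ISRE in capitals (on the opposite strand its tetramers read TTTC, and runs longer than 10 capitals are overlapping matches).
Isg15 (chr4:156200855-156200916, minus strand): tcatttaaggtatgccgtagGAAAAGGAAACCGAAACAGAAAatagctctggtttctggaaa
Ifit1 (chr19:34640765-34640833, plus strand): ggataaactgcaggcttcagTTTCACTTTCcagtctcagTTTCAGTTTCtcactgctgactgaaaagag
Ifit3 (chr19:34583353-34583436, plus strand): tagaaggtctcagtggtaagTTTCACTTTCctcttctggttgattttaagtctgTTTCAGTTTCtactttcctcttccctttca
Ifit3b (chr19:34607749-34607832, plus strand): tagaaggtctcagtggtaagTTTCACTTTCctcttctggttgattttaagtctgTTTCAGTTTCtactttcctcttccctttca
Rsad2 (chr12:26456538-26456597, minus strand): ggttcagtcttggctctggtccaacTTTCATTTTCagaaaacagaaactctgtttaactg
Slfn5 (chr11:82951922-82951981, plus strand): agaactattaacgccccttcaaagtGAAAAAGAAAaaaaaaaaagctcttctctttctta
Ifi211 (chr1:173913049-173913108, minus strand): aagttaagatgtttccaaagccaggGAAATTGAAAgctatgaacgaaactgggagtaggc
Bst2 (chr8:71537565-71537624, minus strand): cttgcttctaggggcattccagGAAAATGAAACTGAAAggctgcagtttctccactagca

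Isg15 and Bst2 carried overlapping copies, 3 and 2 matches respectively, whereas Ifit1 and Ifit3 each carried 2 separate copies. The 84 bases shown for Ifit3 were identical to those of its neighbour Ifit3b. These paralogues also share transcript sequence, and reads were counted at the 3′ ends of transcripts. For Ifit3, 6.57% of the sequence stretches tested near its 3′ ends also occur in Ifit3b. The share was higher for Ifi211 (59.4%, shared with Ifi205 and Mndal), Oas1a (42.3%, with Oas1g), Ifi209 (37.1%, with Ifi214), Herc6 (21.0%) and Trim30a (17.8%, with Trim30d), so the counts of these genes are uncertain to that extent.

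After the filter (at least 500 genes and at most 20% mitochondrial unique molecular identifiers, UMIs), the microglia libraries held 280 to 6375 cells and 6160925 to 105751888 UMIs, and the nuclei libraries 4552 to 6198 nuclei and 9897721 to 17605575 UMIs. All 12 microglia markers checked were detected in every microglia library, which does not measure purity. A stricter gate on marker genes kept 66.31% of cells in E15 MIA replicate 1 and 74.48% in E15 saline replicate 1. It kept 85.44% to 99.06% in the other microglia libraries. The study removed neuronal clusters, whereas all cells past the filter were kept here unless another setting is named. E13 MIA replicates 1 and 2 were the smallest libraries, at 280 and 375 cells, and 48.6% and 70.1% of their cell barcodes recurred in other libraries. Of the cells of E13 MIA replicate 2, 68.8% shared a barcode with P14 saline replicate 3F, and the shared cells of that P14 library carried 1790 CPM of the dividing-cell markers against 45.4 CPM in its other cells. Results were therefore also computed with the shared barcodes removed from the library with fewer UMIs for them. Border macrophages are a related population of the brain's surfaces. Cells with at least 4 of 8 of their markers made up 3.05% to 17.5% of E13, 1.0% to 4.67% of E15 and 0.18% to 0.458% of P14 cells. The study also describes microglia within the embryonic cortex that express such markers, and the 2 kinds were not told apart here. Among the nuclei, the library labelled WT MIA replicate 2 held 0 UMIs of C1qb, a microglial gene, whereas the library labelled Csf1r-/- saline replicate 2 held 25. These values go against both labels, since the other WT libraries held 37 to 71 and the other Csf1r-/- libraries 0.

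Interferon-stimulated genes were a small part of the microglial transcriptome in every library. The 52 members together took 0.113% to 0.21% of UMIs per library, and each was detected in all 12 embryonic libraries. Levels are given as UMIs per 1000000 UMIs of a library (CPM). Bst2 (chr8:71534255-71537456, minus strand, GRCm38; tetherin, which holds budding virions on the cell surface) led at E13 with 249.8 ± 41.6 CPM (SD, n = 3 saline libraries) and at E15 with 227 ± 53.6 CPM, but ranked behind Lgals9 and Gbp7 at P14 with 118 ± 5.98 CPM (n = 4). Lgals9, encoding the secreted lectin galectin 9, led at P14 with 219.7 ± 10.2 CPM, after 164 ± 22.8 CPM at E13 and 149.6 ± 24.03 CPM at E15. Its E13 levels were 180.3, 173.7 and 138 CPM in saline replicates 1 to 3. Gbp7, a guanylate-binding GTPase of cell-autonomous immunity, stood at 56.3 ± 9.71, 90.4 ± 26.5 and 124.9 ± 19.6 CPM at the 3 stages, with 112, 105, 135 and 147 CPM in P14 replicates 1, 2, 3F and 3M. Trim30a, a brake on toll-like receptor signalling, stood at 67.8 ± 20.0, 67.0 ± 12.47 and 103.7 ± 2.18 CPM, with 90.7, 59.3 and 53.5 CPM at E13. Slfn2 was at 82.0, 59.7 and 59.97 CPM at E13, where replicate 1 was the highest for both genes. Ifi27l2a, a small interferon-induced protein, varied most among the abundant members: 342.6, 129 and 96.1 CPM in E13 saline replicates 1 to 3. The high value belonged to the saline library with the largest share of border macrophage-like cells (16.0%, against 5.04% and 3.05%). At the other end, Oas3 and Ifi44 stayed below 1.5 CPM in every library.

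**Figure D1:**
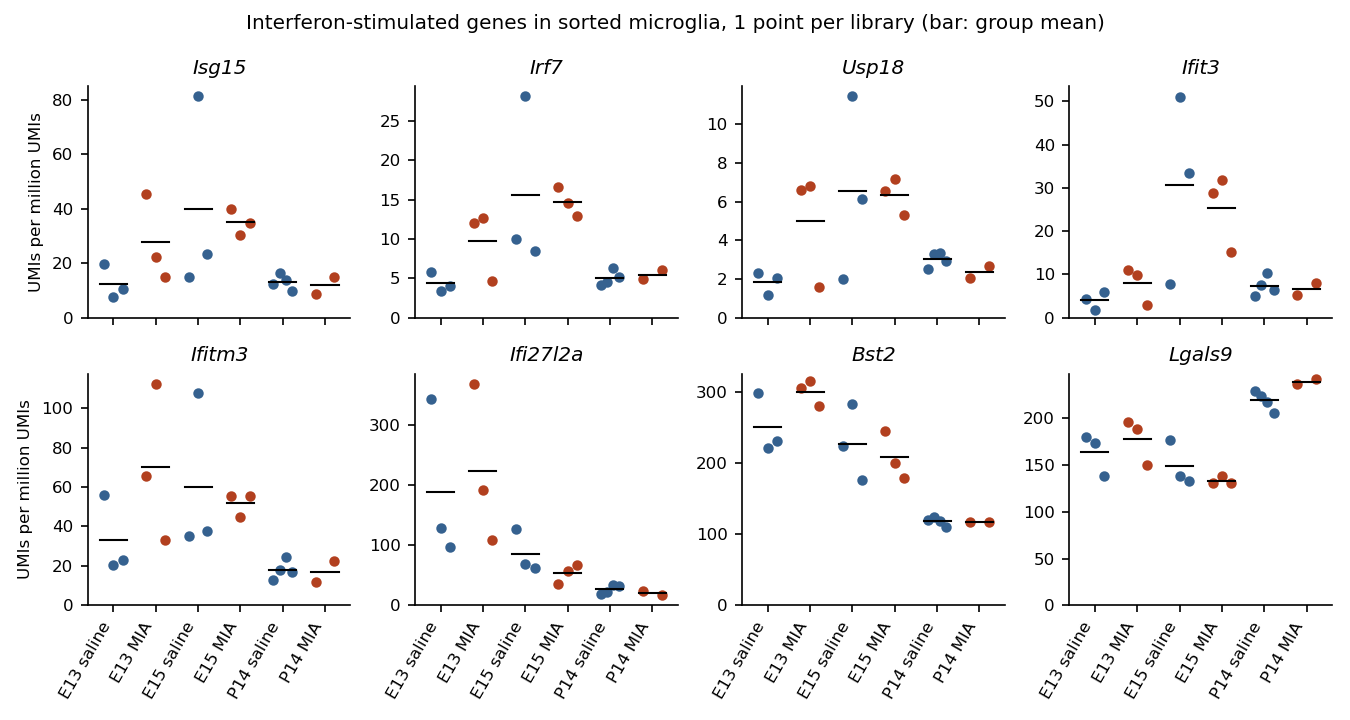
Levels of 8 interferon-stimulated genes (CPM, vertical axes) in each of the 18 microglia libraries by stage and treatment. Points are libraries (blue saline, red MIA) and bars are group means. Isg15, Irf7, Usp18 and Ifit3 were highest in E15 saline replicate 2, whereas Bst2 fell and Lgals9 was higher at P14.

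From E13 to E15, the Ifit genes and several other antiviral genes rose in saline microglia. Of 52 members tested, 17 rose and 1 fell at an adjusted p below 0.05 (edgeR, quasi-likelihood test, all 10 saline libraries in 1 model), where 28.7% of all 14232 genes were called. The share of members called was only a little higher than that of all genes. The median log2 change was 0.39 for members and 0.03 for all genes. In the E13 and E15 saline libraries, microglia markers summed to 23070 to 23730 and 33170 to 40900 CPM. Neuronal markers summed to 97.0 to 121.9 and 398 to 558 CPM, and border macrophage markers to 274 to 1544 and 267 to 411.5 CPM. With border macrophage-like cells removed, 19 members were called, and the part of the other markers was not tested. All 4 Ifit genes rose, by 2.34 to 3.54 on the log2 scale, and so did 3 of 6 signalling genes, 3 of 6 immunity GTPases, 2 of 5 genes of Isg15 and its conjugation, 2 of 5 of the Ifi200 family, 2 of 6 membrane and entry genes and 1 of 5 of the Oas family. None of the 5 RNA and DNA sensing genes, 3 Parp and Deltex genes or 7 other genes was called.

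Ifit3 (chr19:34583531-34588731, plus strand), which binds foreign RNA in a complex with Ifit1, showed a large change. The levels were 4.31, 1.73 and 5.86 CPM in E13 saline replicates 1 to 3 and 7.74, 51.1 and 33.4 CPM in E15 saline replicates 1 to 3 (log2 change 2.90, SE 0.60, adjusted p = 0.00588). Every E15 library lay above every E13 library, but E15 replicate 1 lay close to them. Dividing-cell markers stood at 1429 CPM in that library, against 444.6 and 533 CPM in E15 replicates 2 and 3 and 1571 to 1794 CPM in the E13 saline libraries, and their part in these changes was not tested. Its relative Ifit2 was at 4.13, 2.99 and 3.36 CPM at E13 and at 5.52, 30.5 and 18.4 CPM at E15 (2.34, SE 0.48, adjusted p = 0.0058). Irf7 (chr7:141262706-141266481, minus strand), the factor that amplifies interferon production, was at 5.77, 3.37 and 4.02 CPM at E13 and at 10.1, 28.2 and 8.44 CPM at E15 (1.82, SE 0.41, adjusted p = 0.00862). Usp18, the protease that strips Isg15 from proteins and dampens the receptor, was at 2.30, 1.15 and 2.06 CPM and then at 2.01, 11.5 and 6.11 CPM (1.79, SE 0.49, adjusted p = 0.0202). In the case of Usp18 the groups overlapped, since E15 replicate 1 was within the E13 range.

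Isg15 itself (chr4:156199424-156200818, minus strand) was at 19.7, 7.43 and 10.4 CPM at E13 and at 14.8, 81.4 and 23.4 CPM at E15 (1.66, SE 0.55, adjusted p = 0.0418). This call was lost under the replicate block, in the cells kept by a stricter gate on marker genes and in 7 of the 10 fits that leave out 1 library, whose log2 changes were 0.59 to 2.07. The groups overlapped here too, and E15 saline replicate 2 stood far above all other saline libraries. Smaller changes were seen for 3 further genes. Igtp, an immunity-related GTPase, was at 12.2, 10.6 and 8.97 CPM and then at 15.1, 21.6 and 17.8 CPM (0.75, SE 0.14, adjusted p = 0.00406). Stat2 was at 11.8, 10.5 and 10.0 CPM and then at 12.8, 19.9 and 16.8 CPM (0.58, SE 0.16, adjusted p = 0.0209). Uba7, the enzyme that activates Isg15 for conjugation, was at 22.1, 16.6 and 14.8 CPM and then at 25, 25.5 and 26.2 CPM (0.50, SE 0.14, adjusted p = 0.0219). For these 3 genes the groups did not overlap, but Stat2 and Uba7, like Usp18, lost their calls without E13 saline replicate 2, without E13 saline replicate 3 or without E15 saline replicate 2. Gbp7 was at 67.4, 51.8 and 49.7 CPM and then at 62.7, 92.8 and 115.6 CPM (0.65, SE 0.20, adjusted p = 0.0307), with E15 replicate 1 inside the E13 range. Its call was lost when any 1 of E13 saline replicates 2 and 3 or E15 saline replicates 2 and 3 was left out.

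Trim25, a ubiquitin ligase of the RIG-I pathway, was the single member that fell, from 33.0, 28.0 and 22.6 CPM to 20.1, 20.7 and 23.8 CPM (log2 change -0.40, SE 0.13, adjusted p = 0.0373), with overlapping groups. It lost its call in 7 of the 10 fits that leave out 1 library, with library totals, without the filter on low counts and under the replicate block. Ifitm3 (chr7:141009586-141010770, minus strand), which blocks virus entry at endosomes, was at 55.9, 20.6 and 23.2 CPM and then at 35.2, 107.8 and 37.6 CPM (0.85, SE 0.46, adjusted p = 0.188), and Bst2 at 297.6, 221 and 231 CPM and then at 224, 282 and 175 CPM (-0.16, SE 0.18, adjusted p = 0.527). Over all 52 members, 9 were higher in every E15 than in every E13 saline library and 0 were lower, against 18% and 13.1% of all genes. The count of member calls moved with single libraries. It was 6 without E15 saline replicate 2, 6 without E13 saline replicate 2 and 9 without E13 saline replicate 3, but 27 without E15 saline replicate 1. The count over all genes moved too: it was 4080 with all libraries and 2270 to 6190 over the fits that leave out 1 library. The movement was thus not particular to the members. With the replicate number as a block, 14 members were called, but equal numbers at different stages were not checked for pairing.

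Between E15 and P14 most interferon-stimulated genes fell. Of 52 members, 29 fell and 6 rose (edgeR, adjusted p below 0.05), where 53.5% of all 14232 genes were called. The median log2 change was -1.03 for members and 0.04 for all genes. Dividing-cell markers summed to 445 to 1429 CPM in the E15 and 40.9 to 172.8 CPM in the P14 saline libraries, and border macrophage markers to 267 to 411.5 and 106 to 154 CPM. With border macrophage-like cells removed the member median was -0.81, and the part of dividing cells was not tested. All 4 Ifit genes fell (log2 changes -2.74 to -2.03), as did 4 of 5 Oas genes, 4 of 5 Ifi200 genes, 5 of 6 membrane and entry genes and 3 of 5 genes of Isg15 and its conjugation. The genes that rose were Irf9, Lgals9 and Trim30a of the signalling group, the GTPase Igtp, Dtx3l (a ubiquitin ligase that partners Parp9) and Ifi27 (log2 changes 0.36 to 0.68). Lgals9, at an adjusted p of 0.0498, lost its call with DESeq2 and with 3F and 3M as 1 library. It also lost its call in every fit that leaves out 1 library, except the fit without E15 saline replicate 1. In the cells kept by the stricter gate on marker genes, Lgals9, Trim30a and Dtx3l all lost their calls. Dtx3l lost its call without E15 saline replicate 1 and without P14 saline replicate 1 as well.

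The genes that rose held tight levels at P14. Lgals9 was at 177.2, 138 and 133.5 CPM in E15 saline replicates 1 to 3 and at 229.8, 224.5, 218 and 206 CPM in P14 saline replicates 1, 2, 3F and 3M (log2 change 0.36, SE 0.14). Irf9, the DNA-binding partner of Stat2, was at 27.4, 26.3 and 30.02 CPM and then at 41.4, 45.9, 47.1 and 47.6 CPM (0.52, SE 0.12, adjusted p = 0.00346). Trim30a was at 52.9, 71.6 and 76.6 CPM and then at 102, 103, 103 and 107 CPM (0.45, SE 0.16, adjusted p = 0.0376), but lost its call under the replicate block and with 3F and 3M as 1 library. Its call was also lost without E15 saline replicate 1 or 2 and without any 1 of the P14 saline libraries. None of the 3 had overlapping groups. Ifi27, a mitochondrial interferon-induced protein, was at 58.8, 35.5 and 41.1 CPM and then at 87.5, 89.2, 78.1 and 76.2 CPM (0.68, SE 0.17, adjusted p = 0.00541). Lgals3bp, a secreted galectin ligand, was at 38.2, 63.1 and 40.8 CPM and then at 82.7, 93.3, 70.1 and 67.8 CPM (0.54, SE 0.21, adjusted p = 0.052). Its groups did not overlap either, but its test missed the threshold. Eif2ak2, the RNA-activated kinase PKR that halts translation, stayed between 46.7 and 70.6 CPM in all 10 saline libraries, with adjusted p of 0.985 from E13 to E15 and 0.878 from E15 to P14.

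Some of the genes that fell were near 1 CPM at P14. Oasl1, which represses the translation of Irf7, was at 1.26, 6.38 and 3.35 CPM at E15 and at 0.135, 0.387, 0.635 and 0.336 CPM at P14 (log2 change -3.44, SE 0.57, adjusted p = 0.000485). Mx1, an interferon-induced GTPase, was at 2.15, 8.99 and 6.44 CPM and then at 1.26, 1.86, 2.06 and 2.22 CPM (-1.83, SE 0.39, adjusted p = 0.00245). Zbp1, a sensor of Z-form nucleic acids, was at 3.79, 8.54 and 4.06 CPM and then at 0.631, 1.47, 2.18 and 1.65 CPM (-2.06, SE 0.40, adjusted p = 0.00131). The groups were apart for Oasl1 and Zbp1 and touched for Mx1 at E15 replicate 1. These 3 genes were chosen after their values were seen.

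Ifi204 (chr1:173747293-173766943, minus strand), a DNA sensor of the Ifi200 family, had the change with the smallest adjusted p. The levels were 27.6, 49.6 and 26.8 CPM in E15 saline replicates 1 to 3 and 1.62, 3.76, 6.58 and 4.20 CPM in P14 saline replicates 1, 2, 3F and 3M (log2 change -3.29, SE 0.39, adjusted p = 5.24e-05). The groups were far apart, and the E13 saline libraries had held 59.98, 33.7 and 30.3 CPM. With shared barcodes removed, the P14 libraries held 1.42, 3.78, 2.68 and 1.22 CPM and their mean was 2.28 rather than 4.04 CPM. Bst2 was at 120.2, 123, 118 and 109 CPM at P14 (-1.14, SE 0.16, adjusted p = 0.000196), below every E15 library and with little spread. Ifi27l2a was at 126, 69.3 and 62.2 CPM at E15 and at 18.1, 21.6, 34.4 and 31.5 CPM at P14 (-1.91, SE 0.41, adjusted p = 0.00253), again without overlap. Ifitm3 was at 12.8, 18.1, 24.4 and 16.7 CPM at P14 (-1.93, SE 0.43, adjusted p = 0.00311), all below the lowest E15 library (35.2 CPM). Slfn2, a Schlafen gene of T cell and monocyte quiescence, was at 51.6, 60.4 and 57.6 CPM and then at 28.4, 42.8, 44.8 and 45.1 CPM (-0.68, SE 0.15, adjusted p = 0.00318), also without overlap.

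Several genes that had risen at E15 were among those that fell. At P14, Ifit3 was at 4.96, 7.59, 10.3 and 6.39 CPM (log2 change -2.24, SE 0.53, adjusted p = 0.00412) and Ifit2 at 3.11, 6.78, 5.63 and 4.47 CPM (-2.03, SE 0.43, adjusted p = 0.00229). Isg15 was at 12.3, 16.4, 13.8 and 9.75 CPM (-1.79, SE 0.50, adjusted p = 0.0107), overlapping E15 replicate 1 alone. Without E15 saline replicate 2 the log2 change was -0.75 and the call was lost. Irf7 was at 4.10, 4.57, 6.27 and 5.18 CPM (-1.82, SE 0.37, adjusted p = 0.00183) and Usp18 at 2.52, 3.29, 3.33 and 2.93 CPM (-1.28, SE 0.44, adjusted p = 0.0284), a call lost under the replicate block and with 3F and 3M as 1 library. Of these 5 genes, only Irf7 had groups that did not overlap, since E15 replicate 1 lay within or below the P14 values for the others. Stat2 differed from this pattern, at 14.5, 16.8, 20.0 and 18.7 CPM at P14 (-0.10, SE 0.15, adjusted p = 0.592).

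Without E15 saline replicate 2, the library with the highest Isg15 level, 26 members were called and the member median was -0.55. Over all fits that leave out 1 library, 6665 to 7976 of all genes were called. With P14 saline 3F and 3M, which share a replicate number, as 1 library, 28 members were called. In all, 15 members were lower and 10 higher in every P14 than in every E15 saline library, against 16.1% and 26.0% of all genes. With library totals in place of TMM scaling, under which the median of all genes was 0.23 rather than 0.04, 32 members were called and the member median was -0.83. Stage also stands for litter, sort day and tissue age in these libraries, and these cannot be told apart. In these sums, fewer cells of a kind and less RNA per cell cannot be told apart either.

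**Figure D2:**
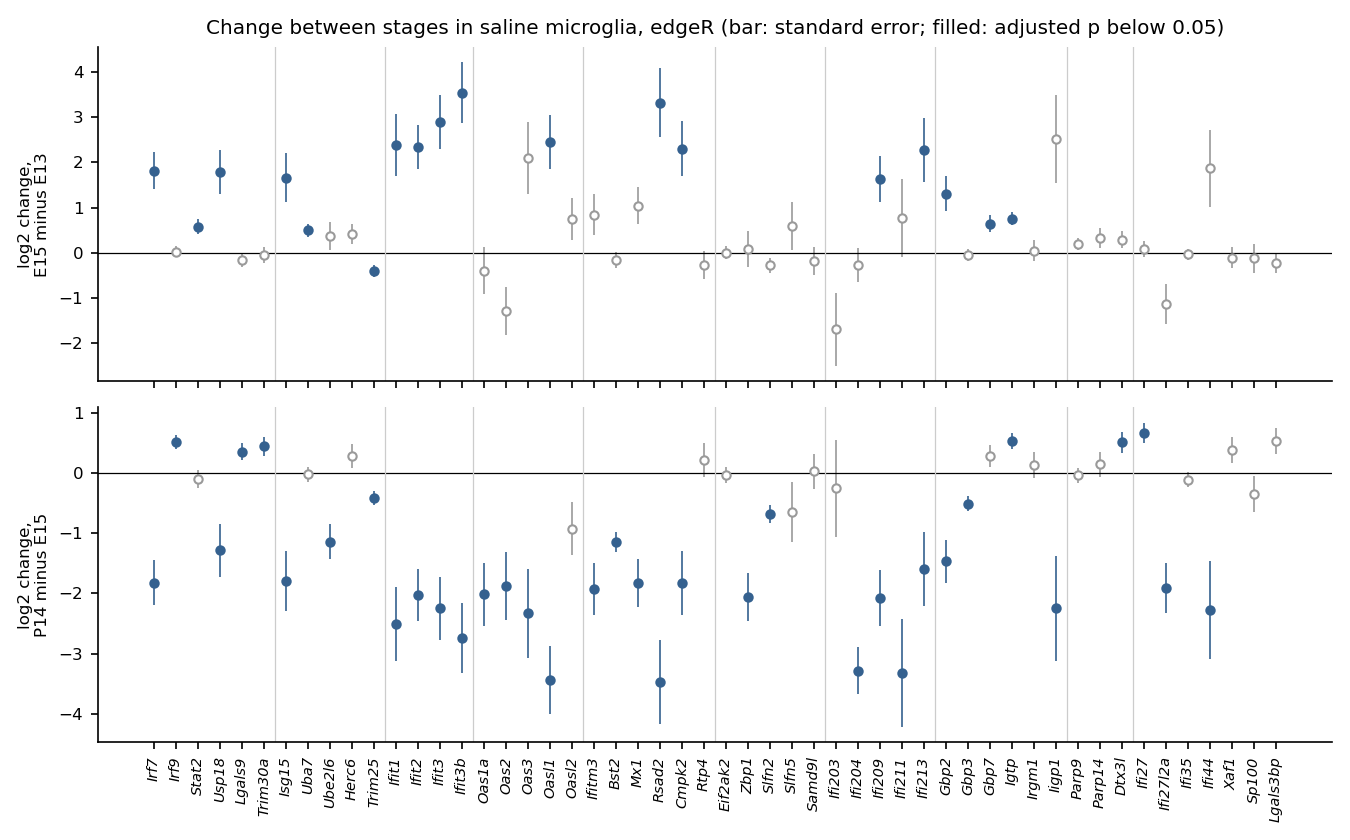
Log2 change of each of the 52 members in saline microglia from E13 to E15 and from E15 to P14, grouped by role. Bars are standard errors and filled points have an adjusted p below 0.05 (edgeR). The Ifit genes rose by 2.34 to 3.54 and then fell by 2.03 or more on the log2 scale, whereas Irf9, Lgals9, Trim30a and Igtp were higher at P14.

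Genes upstream of the response were also read. Of 27 listed receptors, kinases, sensors and factors, 24 could be tested in saline microglia: 6 rose and 2 fell from E13 to E15, and 15 rose and 0 fell from E15 to P14. These are 33.3% and 62.5% of those tested, against 28.7% and 53.5% of all genes. Tlr3, the endosomal receptor of double-stranded RNA, averaged 14.3, 23.1 and 86.3 CPM at E13, E15 and P14. Tmem173 (the adaptor Sting) averaged 56.9, 83.0 and 271 CPM, and Ifngr1, a receptor chain for interferon gamma, 282, 527 and 1050 CPM. These 3 rose in both comparisons (edgeR, adjusted p of 0.0388, 0.00372 and 0.000422 from E13 to E15). Of 43 other interferon-induced genes listed, 38 were tested: 8 rose and 0 fell from E13 to E15, and 6 rose and 12 fell from E15 to P14, or 21.1% and 47.4% of those tested, shares below those of all genes. The chemokine Cxcl10 averaged 2.66, 50.5 and 1.26 CPM, a rise and a fall that both passed the test (edgeR, adjusted p = 0.0102 and 0.000653). Its highest level in any library was 115 CPM, in E15 saline, so the E15 mean hides a wide spread between libraries.

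After maternal poly(I:C), no interferon-stimulated gene passed the test in E13 microglia. Of 50 members tested, 0 were called by edgeR and 0 by DESeq2, where edgeR called 0% of all 12994 genes (101 had an unadjusted p below 0.05) and DESeq2 called 2 genes. Nevertheless, 49 of the 50 members (98%) had a positive log2 change after MIA, against 51.9% of all genes, with a median log2 change of 0.44 for members and 0.01 for all genes. The exception was Trim25, at -0.02. An unadjusted p below 0.05 was reached by 7 members, all higher, and by 13 with DESeq2. The role medians were largest for the Ifi200 family (1.34), the membrane and entry genes (1.07), the Oas genes (0.94) and the Ifit genes (0.89), and smallest for the Parp and Deltex genes (0.09).

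The higher levels were those of E13 MIA replicates 1 and 2. Of the 52 members, 47 lay above all 3 saline libraries in MIA replicate 1 and 43 in replicate 2, but 2 in replicate 3, where 35 lay within the saline range and 15 below it. Isg15 was at 19.7, 7.43 and 10.4 CPM in E13 saline replicates 1 to 3 and at 45.4, 22.4 and 15.0 CPM in E13 MIA replicates 1 to 3 (log2 change 1.12, SE 0.44, adjusted p = 1.0, edgeR). Irf7 was at 5.77, 3.37 and 4.02 CPM after saline and at 12.1, 12.7 and 4.66 CPM after MIA (1.07, SE 0.36, adjusted p = 1.0). Ifitm3 was at 55.9, 20.6 and 23.2 CPM and at 65.5, 112.5 and 33.1 CPM (1.04, SE 0.45, adjusted p = 1.0). For all 3 genes, MIA replicates 1 and 2 lay above every saline library and replicate 3 lay among them. Usp18 was at 2.30, 1.15 and 2.06 CPM and at 6.61, 6.82 and 1.57 CPM (1.31, SE 0.53), and Rsad2 (viperin, which makes a chain-terminating nucleotide) at 1.5, 0.835 and 1.88 CPM and at 11, 6.49 and 0.974 CPM (1.98, SE 0.74). Oasl1 (log2 change 2.04, SE 0.81) and Ifit3b (1.52, SE 0.63) completed the 7 members with an unadjusted p below 0.05, all 7 with an adjusted p of 1.0. Bst2 was at 304.8, 315 and 279.7 CPM after MIA (0.25, SE 0.14), with replicate 3 inside the saline range. Stat2 was at 12.2, 16.1 and 9.02 CPM (0.14, SE 0.19) and Ifit3 at 11, 9.90 and 2.89 CPM (0.86, SE 0.54), with the same library lowest. These 3 genes did not reach an unadjusted p of 0.05. Only Ifi35 was higher in every MIA than in every saline library, where 2.03% of all genes were.

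**Figure D3:**
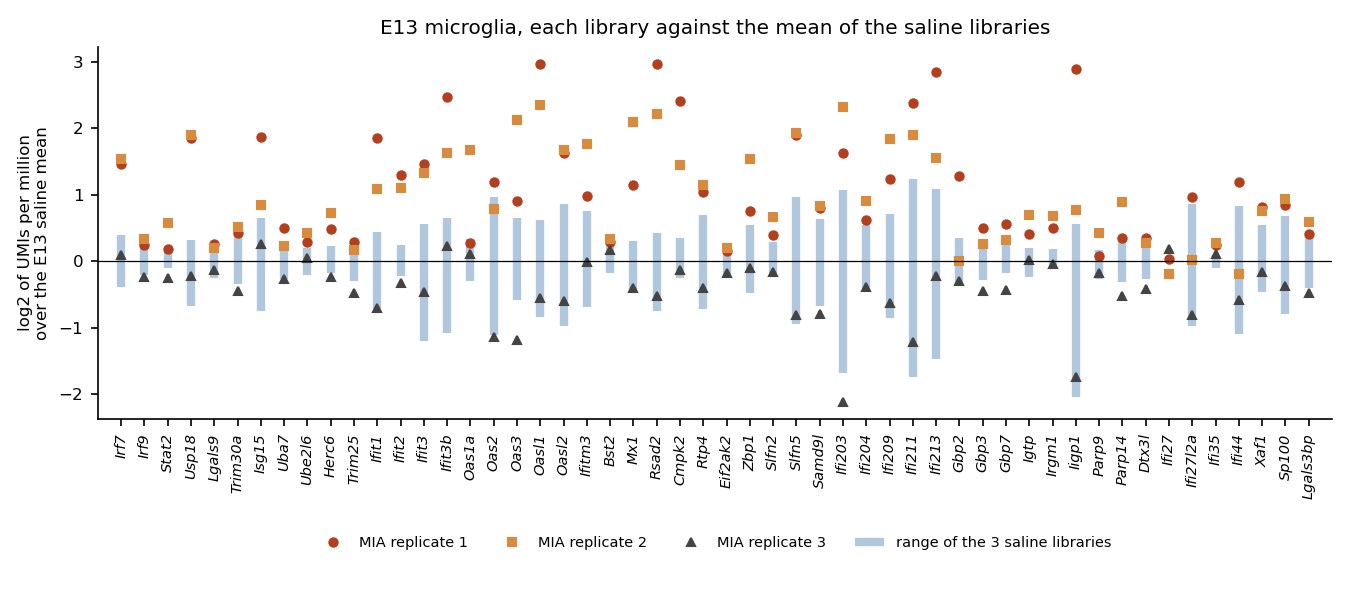
Level of each member in the E13 MIA libraries as the log2 of its CPM over the mean of the 3 E13 saline libraries (vertical axis). Vertical bars span the 3 saline libraries. MIA replicates 1 and 2 (280 and 375 cells) lay above the saline range for 47 and 43 of 52 members, replicate 3 for 2.

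Other measurements moved with these values. MIA replicates 1 and 2 were the small libraries named above, and with both left out, a setting added after the data were seen, 10 of 51 members were higher and the median was -0.30. That leaves 1 MIA library, so no test is read from it. Over the fits that leave out 1 library, 1 to 35 members had an unadjusted p below 0.05 (edgeR) and the median was 0.26 to 0.81. The 35 members and the median of 0.81 were those without MIA replicate 3. Border macrophage-like cells made up 17.5%, 11.7% and 5.13% of the MIA and 16.0%, 5.04% and 3.05% of the saline libraries, and all 8 of their markers were detected in each, with summed levels of 310 to 1682 CPM after MIA and 274 to 1544 CPM after saline. In E13 libraries, 50 of 52 members were higher in these cells than in the rest, with a median ratio of 2.05, and 32 were higher in all 6 libraries. Ifi27l2a averaged 544 CPM in them and 124 CPM in other cells, Ifitm3 145 and 32.2 CPM, Isg15 38.6 and 15.9 CPM, and Ifi203 14 and 0.807 CPM. With these cells removed, 45 of 50 members were still higher after MIA, with a median of 0.28 and 3 at an unadjusted p below 0.05, and Isg15 was at 31.2, 15.46 and 13.97 CPM against 17.3, 7.24 and 10.0 CPM after saline. Removing the shared barcodes took only 0.357% and 1.07% of the cells of MIA replicates 1 and 2, which held more UMIs of nearly all of them, so this setting (49 of 50 members higher, median 0.46) says little about these libraries. The part of library size in the result was not tested.

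At E15, no interferon-stimulated gene passed the test after MIA. Of 52 members tested, 0 were called by edgeR, where 0% of all 14020 genes were (54 had an unadjusted p below 0.05), and DESeq2 called 0 genes (99 had an unadjusted p below 0.05). No member reached an unadjusted p below 0.05 with edgeR in this fit, which had no replicate block. Only 5 members (9.62%) had a positive log2 change after MIA, against 53.6% of all genes, the median log2 change was -0.20 for members and 0.01 for all genes, and the range -0.70 (Ifi27l2a) to 0.25 (Ifi211). Isg15 was at 39.8, 30.5 and 34.9 CPM in E15 MIA replicates 1 to 3, inside the wide saline range of 14.8 to 81.4 CPM (log2 change -0.20, SE 0.58). Ifit3 was at 28.9, 31.9 and 15.3 CPM after MIA (-0.28, SE 0.62) and Irf7 at 16.6, 14.5 and 12.96 CPM (-0.10, SE 0.46), both within the saline range. Ifitm3 was at 55.4, 44.5 and 55.3 CPM (-0.24, SE 0.44) and Bst2 at 245, 200.4 and 178 CPM (-0.15, SE 0.22), again within the saline range before shared barcodes were removed. Stat2 was at 12.02, 14.4 and 18.8 CPM (-0.14, SE 0.24) and Usp18 at 6.52, 7.16 and 5.30 CPM (-0.04, SE 0.55). The MIA replicates were closer to each other than the saline replicates for Isg15, Ifit3, Irf7, Ifitm3 and Usp18. All of these had an adjusted p of 1.0. With shared barcodes removed, Bst2 in MIA replicate 3 was at 166.8 CPM, below the lowest saline library (173.7 CPM). In that setting every MIA library lay below every saline library for 1 member, Ifi27l2a, as for 1.56% of all genes. Without saline replicate 2, 29 members were higher and the median was 0.08. Without MIA replicate 1, 21 were higher and the median was -0.05. That library stood apart, with 2272 CPM of neuronal markers against 181 to 597 CPM in the other E15 libraries and 837 CPM of stress genes against 224 to 264 CPM, and the part of these in the result was not tested. These fits had no block, although the replicate numbers were taken to pair the E15 libraries. With the replicate number as a block, 13 members were higher.

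At P14, 0 of 49 members tested were called by edgeR after MIA, where 0% of all 13640 genes were (417 had an unadjusted p below 0.05), and DESeq2 called 1 gene, not a member. The median log2 change was -0.08, and 16 members (32.7%) were higher, against 49% of all genes. Without MIA replicate 1, 26 of 50 were higher and the median was 0.03. Bst2 was at 117 and 117 CPM in the MIA libraries against 109 to 123 CPM after saline (log2 change 0.01, SE 0.08), Isg15 at 8.70 and 15.0 CPM against 9.75 to 16.4 CPM (-0.12, SE 0.25), and Irf7 at 4.88 and 6.06 CPM against 4.10 to 6.27 CPM (0.14, SE 0.19). The groups overlapped for Isg15 and Irf7, and for Bst2 the MIA values lay within the saline range. Ifit3 at 5.21 and 7.93 CPM, Ifitm3 at 11.6 and 22.3 CPM, Stat2 at 15.6 and 16.5 CPM and Usp18 at 2.06 and 2.68 CPM overlapped their saline groups as well. The 2 members with an unadjusted p below 0.05 were both lower: Gbp2, an antibacterial GTPase, at 3.71 and 3.60 CPM against 4.42 to 5.36 CPM (-0.38, SE 0.16, adjusted p = 0.992), and Ifi213 at 0.184 and 0.307 CPM against 0.406 to 0.639 CPM (-1.11, SE 0.46, adjusted p = 0.992). Both MIA libraries lay below all 4 saline libraries for 5 members and above them for 3 (Irf9, Lgals9 and Ifi35), against 4.6% and 4.53% of all genes. With shared barcodes removed, they lay below for 5 members and above for 2 (Lgals9 and Ifi35), against 4.57% and 4.81% of all genes.

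The response to MIA was not shown to differ between stages. For the change in MIA response from E13 to E15, edgeR and DESeq2 called 0 of 52 members, where edgeR called 0% of all 14408 genes (44 had an unadjusted p below 0.05). Only 1 member (1.92%) had a higher response at E15, against 53.5% of all genes, and the median was -0.74, against 0.02 for all genes, but with both small E13 MIA libraries left out 32 were higher and the median was 0.10. For the change from E15 to P14, edgeR and DESeq2 called 0 of 52 members, where edgeR called 0% of all 14790 genes (128 had an unadjusted p below 0.05), and the median was 0.12, against 0.01 for all genes, with 71.2% of members and 50.8% of all genes higher. Of the listed upstream and other interferon-induced genes, 0 were called by edgeR after MIA at E13, E15 or P14. Both interaction tests share the E15 libraries.

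Seen cell by cell, the acute members were found together in few cells. Each cell with at least 2000 UMIs was thinned to 2000 (60190 cells, with 7657 shallower cells left out), and cells were described by how many of 12 acute members (Isg15, Ifit1, Ifit2, Ifit3, Ifit3b, Irf7, Usp18, Oasl1, Rsad2, Cmpk2, Zbp1 and Rtp4) they held. The word acute is only a name for this list and was not tested. None of the 12 was detected in 56273 cells, 1 in 3028, 2 in 408 and at least 3 in 481, or 0.799% of cells. This last class is a range of a count, not a cell type, and the 408 cells with 2 lie just below its limit. It was found in all 18 libraries, at 0.284% to 2.44% of cells. No p is given for these shares, and their exact 95% binomial intervals cover counting error only.

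The share was 0.791%, 0.41% and 0.46% in E13 saline replicates 1 to 3 and 2.44% (6 cells, interval 0.9% to 5.23%), 1.77% (5 cells, 0.576% to 4.07%) and 0.42% in the E13 MIA replicates. It was 0.619%, 2.37% (67 cells, 1.84% to 3.0%) and 1.44% in the E15 saline and 1.03%, 1.37% and 1.2% in the E15 MIA replicates. At P14 it was 0.451%, 0.53%, 0.751% and 0.513% after saline and 0.284% and 0.736% after MIA. E15 saline replicate 2 had the largest share at that stage and the highest sums of Isg15 and Ifit3. Both genes are among the 12 that define the class, so this match was built in. Saline and MIA libraries overlapped at each stage. Of 612 thinned cells with under 3 of the 12 microglia markers, taken as a background, 0 were in the class (an exact interval allows up to 0.601%), at medians of 2640 to 7070 UMIs before thinning.

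Free RNA adds to every cell of a droplet library, so the 40 members not used to define the class were read in it. They averaged 1.53 to 3.09 UMIs per cell in cells with 0 acute genes and 6.17 to 29.0 UMIs in cells with at least 3, a ratio of 2.69 to 17.4 over the 18 libraries (median 7.67). In E15 saline replicate 2 the level was 1.85, 3.74, 12.1 and 29.0 UMIs per cell at 0, 1, 2 and at least 3 acute genes. Of the 40 genes, 39 were at least 2 times higher in the class over all libraries. Ifitm3 was at 3100 UMIs per 1000 cells in it and at 35.3 in the rest, a ratio of 87.9. Slfn5, an interferon-induced Schlafen gene, was at 794 and 8.96 UMIs per 1000 cells, a ratio of 88.6, and Ifi204 at 1180 and 24.4 (48.3). These ratios pool stages that differ in level. By stage (E13, E15 and P14) they were 35.9, 87.7 and 91.8 for Ifitm3, 14.8, 50.8 and 175 for Ifi204, 28.9, 130 and 85.2 for Slfn5 and 4.59, 10.1 and 9.23 for Bst2. Abundant members differed less: Bst2 was at 3020 and 321 (9.42) and Lgals9 at 759 and 363 (2.09). Ifitm3, Bst2, Ifi204, Slfn2, Parp14, Xaf1, Dtx3l and Lgals9 were higher in the class in all 18 libraries. The exception among the 40 was Ifi27, at 102 and 122 (0.833), with ratios of 1.22, 1.10 and 0.692 at E13, E15 and P14.

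**Figure D4:**
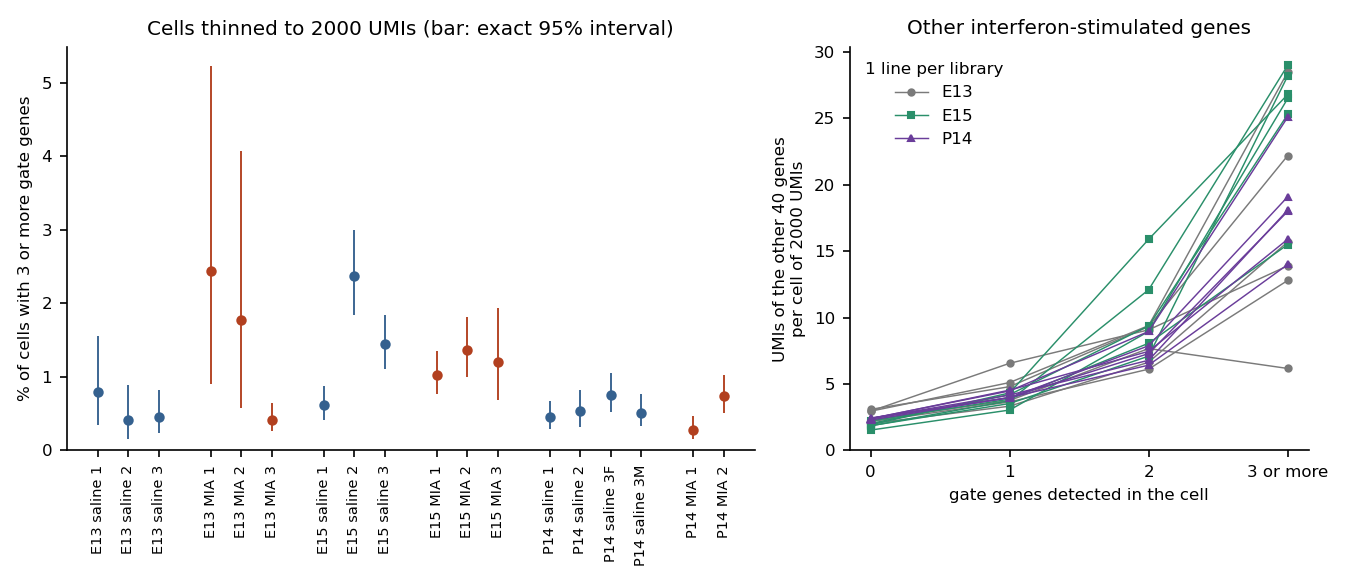
Left, percentage of cells with at least 3 of the 12 acute genes in each microglia library after thinning to 2000 UMIs, with exact 95% binomial intervals. Right, UMIs per cell of the 40 other members in cells with 0, 1, 2 and at least 3 acute genes, 1 line per library. The share ranged from 0.284% to 2.44%, and in every library the readout was higher at 3 or more acute genes than at 0.

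In 5 of the 6 E15 libraries this small class held most UMIs of the acute genes. It held 46.8%, 86.0% and 82.8% of the UMIs of the 12 acute genes in E15 saline replicates 1 to 3 and 79.6%, 86.4% and 76.9% in the MIA replicates, against 9.13% to 49.6% at E13 and 17.0% to 42.9% at P14. Outside the class the 12 genes summed to 23.4 to 45.2 CPM in the E15 libraries, a range that overlapped the 29.1 to 105 CPM at E13 and the 39.8 to 45.9 CPM at P14, whereas over all cells the E15 libraries spanned 70.6 to 313 CPM. The class was cut on these same genes, so these shares describe it and support nothing by themselves. The sums also mix unlike genes. Rtp4 made up 22.99 of the 54.49 CPM of the 12 genes in P14 saline replicate 1 and 33.48 of 83.1 CPM in E13 saline replicate 1. In E15 saline replicate 2 it made up 20.76 of 310.3 CPM. The part of Rtp4 in the contrast between stages was not tested. Genes outside the cut behaved unequally. In E15 saline replicate 2 the class held 88.6% of Ifi211 and 78.2% of Slfn5 UMIs, but 23.3% of Bst2 and 8.66% of Lgals9 UMIs.

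The cells of the class carried microglial markers. The 12 markers summed to 18150 to 74220 CPM in the class and 23110 to 71750 CPM in the rest over the 18 libraries, at medians of 4278 to 16452 and 3798 to 28613.5 UMIs per cell. In E15 saline replicate 2 they summed to 41640 and 40930 CPM, neuronal markers to 101 and 541 CPM and vascular markers to 106 and 33.7 CPM. Neuronal markers were higher in the class in 1 of the 18 libraries and vascular markers in 15. Genes of stress during isolation were higher in the class in all 6 E15 libraries (440 against 253 CPM in saline replicate 2) and reached 2288 against 195 CPM in E13 MIA replicate 1, but were higher in 11 of the 18 libraries in all and lower in most P14 libraries (244 against 388 CPM in saline replicate 1). Their part in the class was not tested. Of the 8 blood myeloid markers, Plac8 (170 against 5.44 CPM over all libraries, in 171 of the 481 cells) and Ccr2 (21.0 against 2.47 CPM, in 9 cells) were higher in the class, as was Ifitm6 (1.44 against 0.186 CPM, in 8 cells), whereas S100a8, S100a9 and Chil3 were at 0 UMIs and Ly6c2 and Lcn2 at 1 UMI each. At E13, border macrophage markers were higher in the class in saline replicate 1 (5974 against 1520 CPM), MIA replicate 1 (5155 against 1610 CPM), MIA replicate 2 (4992 against 632 CPM) and MIA replicate 3 (1045 against 308 CPM), but not in saline replicates 2 and 3, and the part of border macrophages in the E13 shares was not tested. With 1000 UMIs per cell the class was 0.473% of cells and with 4000 it was 1.33%.

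Interferon beta itself was found in E15 microglia and was not detected at the other stages. Ifnb1, a listed upstream gene singled out after its values were seen, had 171 UMIs in 21 cells, all in the 6 E15 libraries. E15 saline replicates 1 to 3 held 1, 100 and 28 UMIs in 1, 6 and 2 cells, and E15 MIA replicates 1 to 3 held 33, 2 and 7 UMIs in 8, 2 and 2 cells. A single cell of saline replicate 2 held 65 UMIs and a single cell of saline replicate 3 held 27. The other 12 libraries held 0 UMIs, which allows up to 0.0284 to 0.487 CPM (3 counts per library). Of the 21 cells, 16 had at least 3 acute genes, and none was a border macrophage-like cell. All 5 exceptions were in E15 MIA replicate 1, where 4 of the 8 cells with Ifnb1 held 0 acute genes. The E15 saline libraries ranked by Ifnb1 as they did by Isg15, with 0.0129, 2.84 and 0.66 CPM, a description over 3 libraries. Ifna4 and Ifng were at 0 UMIs in every library.

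In the nuclei of the E15.5 cortex, interferon-stimulated genes were scarce. The 51 members measured had 7394 UMIs in the 8 libraries, or 71.6 CPM (58.3 to 82.6 CPM per library), where whole microglia had 1126 to 2098 CPM. Of these genes 5 had 0 UMIs in 43456 nuclei (Oas1a, Oasl1, Ifi211, Gbp2 and Ifi27l2a), 20 had 1 to 24 UMIs and 3 had over 500: Stat2 (2443), Irf9 (1345) and Xaf1 (665), the last a regulator of cell death. Stat2 was at 23.7 CPM in nuclei and 13.7 CPM in microglia, whereas Bst2 was at 0.707 and 210.0 CPM and Isg15 at 1.20 and 21.9 CPM. Nuclei and whole cells differ in which transcripts they retain, so these levels are set side by side only.

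**Figure D5:**
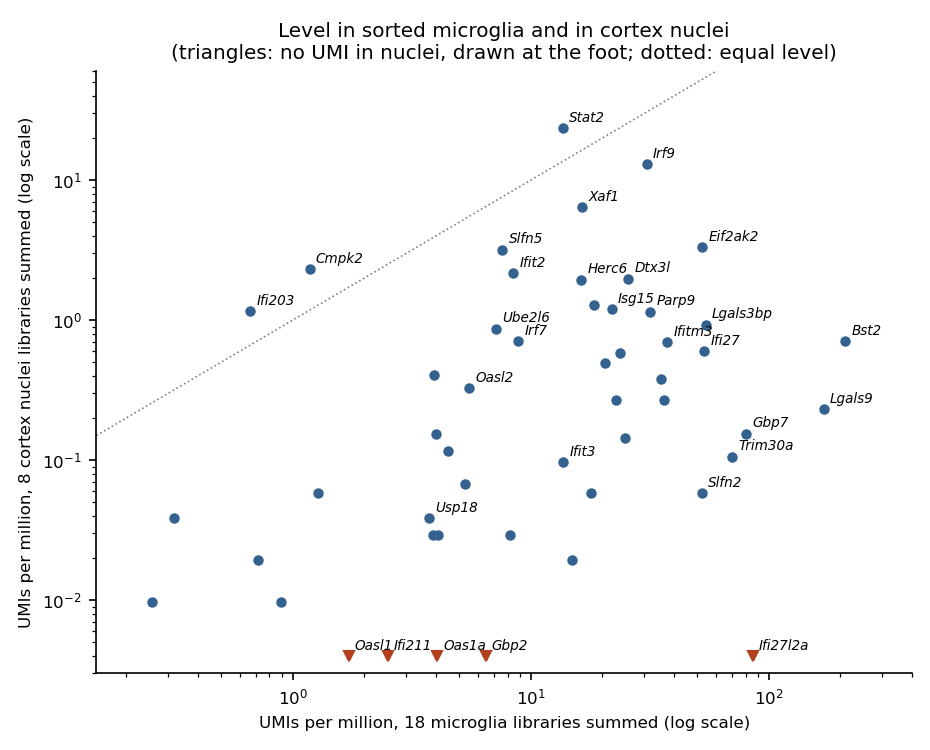
CPM of each member in microglia (horizontal axis, log scale) and in cortical nuclei (vertical axis, log scale). Triangles mark genes with 0 UMIs in nuclei. Stat2, at 23.7 CPM in nuclei, lay above its microglial level, whereas Bst2, at 0.707 CPM, lay far below it.

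Of the members' UMIs in nuclei, 97.0% lay in the 43322 nuclei with fewer than 2 myeloid and fewer than 2 vascular markers, at 69.0 CPM. The level was 1010 CPM in 41 nuclei with at least 2 myeloid markers and 526 CPM in 93 with at least 2 vascular markers. Some members came largely from these few nuclei: 26 of 34 UMIs of Oasl2 and 35 of 72 of Ifitm3 lay in vascular nuclei, and 9 of 11 of Trim30a and 5 of 6 of Slfn2 in myeloid nuclei. Slfn5 followed the replicate number, with 19, 15, 12 and 18 UMIs in the 4 libraries numbered 1 and 65, 105, 46 and 50 in those numbered 2. These sets were also processed with different Cell Ranger versions (3.1.0 and 6.0.1), and version and replicate cannot be told apart.

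No member passed the test for MIA in nuclei. In WT nuclei, edgeR called 0 of the 20 members with enough counts, where 0% of all 14509 genes were called (802 had an unadjusted p below 0.05), and DESeq2 called 4 genes, none a member. In Csf1r-/- nuclei edgeR called 0 of 20 members and 0% of all genes (35 had an unadjusted p below 0.05), and DESeq2 called 1 gene. For the difference between the genotypes edgeR called 0 of 20 members and 0% of all genes (242 had an unadjusted p below 0.05), and DESeq2 called 2 genes. The member medians were 0.10, -0.02 and 0.23. Ifi203, a nuclear DNA-binding protein of the Ifi200 family, was the only member with an unadjusted p below 0.05 in WT nuclei (log2 change 2.30, SE 0.68, adjusted p = 0.891). It had 4 and 6 UMIs after saline and 22 and 34 after MIA in the libraries labelled WT, and 14 and 12 after saline and 21 and 7 after MIA in those labelled Csf1r-/-. The WT groups did not overlap, but replicate 2 after MIA was the library that C1qb contradicts. With both contradicted libraries left out, the member median was -0.07 in WT nuclei, and with their labels exchanged it was 0.08, with 0 members called either way. With the replicate number as a block, 0 of 20 members were called in WT nuclei, in Csf1r-/- nuclei or for the difference between them.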

How the data were processed

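The deposited files were raw UMI count matrices of 18 microglia and 8 nuclei libraries (10x 3′ chemistry). Per the file headers, the authors made these counts with Cell Ranger 3.1.0, except for the 4 nuclei libraries numbered 2, whose headers name 6.0.1, whereas the labels name 3.1.0 for all; the build was mm10. Microglia under 500 genes or above 20% mitochondrial UMIs were dropped, as were nuclei under 500 UMIs or 200 genes. Doublets were left in, and their removal was tried as an alternative. Counts were summed per library and tested with edgeR 4.0.16 (TMM, quasi-likelihood, Benjamini-Hochberg adjustment over all genes that passed its filter on low counts). DESeq2 1.42.0 was the alternative. Treatments were compared within a stage, stages across the 10 saline libraries, and MIA responses by interaction terms. CPM are UMIs per 1000000 UMIs of a library. For counts per cell, cells were thinned at random to 2000 UMIs with a fixed seed. Scripts were tested on simulated data first.

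The 53 members, their roles and all other lists were chosen with earlier results of these data known. Values by library are given for Isg15, Ifit3, Irf7, Ifitm3, Bst2, Stat2 and Usp18. They are also given, in the saline libraries of the comparison or stage, for members called in a comparison (the 8 with the largest change and a mean of at least 10 CPM where more were called) and for the 6 most abundant per stage. Other members given by library were chosen after their values were seen, and genes outside the members come from 2 lists (upstream genes and other interferon-induced genes). Same-numbered libraries were checked for pairing by the correlation of their deviations from group means. These were 0.192 to 0.351 at E15, where the numbers were taken to pair libraries, and 0.501 to 0.682 in nuclei, where the number also goes with the Cell Ranger version. They were -0.0178 to 0.359 at E13 and -0.0562 to 0.263 at P14, where the numbers were not taken to pair libraries. Fits without and with the block were made for all sets, and values are from fits without it unless the block is named. In the stage comparisons the block joins same-numbered libraries of different stages, which were not checked for pairing. Reads at 3′ ends that paralogues share can be lost or misassigned. A level per UMI needs no length correction, because 1 molecule gives 1 tag. Depth was 6160925 to 105751888 UMIs per microglia library, so counting error was small for sums and large for genes below 1 CPM. Intervals cover counting error only.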

Additional observations from a re-analysis of the deposited data

Results flagged for a closer look

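In P14 saline microglia, the level of Slfn2 was 28.4 CPM in replicate 1, apart from the 42.8 to 45.1 CPM of the other 3 libraries. The gap to the nearest library was 0.859 of the group's range, above Dixon's 95% critical value for 4 samples. Chance flags about 1 in 20 groups. P14 saline was the only group of 4 libraries, and all 52 members were screened in it, so that a single flag is no more than chance gives. The fall of Slfn2 from E15 to P14 is reported with this library included.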

How the results depend on the processing

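The member counts in the stage comparisons depended most on single libraries. From E13 to E15, 18 members were called, and leaving out 1 library at a time gave 6 to 27. Among all genes 4080 were called, and leaving out 1 library gave 2270 to 6190. From E15 to P14, 35 members were called, and leaving out 1 library gave 26 to 35. Among all genes these counts were 7608 and 6665 to 7976. DESeq2 called 20 and 36 members, library totals 17 and 32, and no filter on low counts 18 and 35. With replicate block terms in the model, 14 and 32 members were called in the stage comparisons, and no member in any comparison of MIA with saline. The calls lost under the block from E13 to E15 were those of Ifi209, Ifi213, Isg15 and Trim25. From E15 to P14 they were those of Ifi213, Ifi44, Iigp1, Trim30a and Usp18. From E13 to E15, Isg15 and Trim25 were each lost in 7 of the 10 settings that leave out 1 library, with log2 changes of 0.59 to 2.07 for Isg15. After MIA, 0 members were called by edgeR. At E13, the block gave 21 members with an unadjusted p below 0.05 in place of 7. A setting added after the data were seen turned most members: with both E13 MIA libraries of fewer than 400 cells left out, 10 of 51 members were higher, against 49 of 50. Among the 7 genes with an unadjusted p below 0.05, Oasl1 was at -0.5, Usp18 at -0.21, Rsad2 at -0.53, Isg15 at 0.30, Irf7 at 0.11, Ifitm3 at 0.02 and Ifit3b at 0.21. The cause was not tested. The part that the size of the small E13 MIA libraries plays was not tested. Members below 1 CPM in many libraries, such as Oas3 and Ifi213, are limited by counting.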
